A study of Juglans regia with 15 samples.

Results

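The 3 genes described here code for seed storage proteins and an oil body protein of common walnut (Juglans regia), and are called storage genes below. They are the glutelin homologs JreChr03G12610 and JreChr03G12612 and the oleosin gene JreChr12G10222. They were picked by their identifiers, with earlier results of these data known, and are 3 of the 39414 genes in the expression table. Their transcripts were measured by RNA-seq in the endopleura, the thin brown seed coat that encloses the walnut kernel, of the cultivar "Linzaoxiang". The 5 groups are developmental stages of untreated fruit, at 35, 63, 91, 119 and 147 days after pollination (DAP). Each stage has 3 libraries, 15 in all, and each library is a pool of endopleuras from 7 nuts. Whether the pools of a stage came from separate trees is not given in the sources used here, so the p-values measure the spread between pools. Values are FPKM, which scales the fragments of a gene to its length and to all mapped fragments, so levels of different genes can be set side by side per length.

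Seeds store nitrogen and carbon for the seedling. Glutelins are the main storage proteins of the rice grain and belong to the 11S globulins, the family of the cruciferins of Arabidopsis. They carry cupin domains and are packed into protein storage vacuoles. Oleosins are small proteins that coat the oil bodies of seeds and keep the droplets of triacylglycerol apart. Both kinds of protein are made mostly in the embryo and endosperm as the seed matures, and the seed coat around them is maternal tissue. Storage proteins are usually made earlier in maturation than the late embryogenesis abundant (LEA) proteins, which accumulate as the seed dries.

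Both glutelin genes have a cupin domain and the 12S cruciferin gene AT5G44120 as their closest Arabidopsis match, and lie near each other on chromosome 3 of the authors' genome. JreChr03G12610 runs from 42483015 to 42486290, a span of 3276 bases. JreChr03G12612 runs from 42496190 to 42498042, a span of 1853 bases, and the gap between the genes is 9.9 kb. The oleosin gene has an oleosin domain, matches AT3G01570 and runs from 13438302 to 13438769 on chromosome 12, a span of 468 bases. How reads that match both glutelins were shared between them is not given in the sources used here, so the split of reads within the pair is uncertain.

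Library sums of FPKM ranged from 851621 to 1113620. From the steps between low values, depth differed by 1.35 times between the extreme libraries. Same-stage libraries had r from 0.964 to 0.992 across genes, and no pair held identical values. Of the genes measured, 22310 had at least 1 FPKM in at least 3 libraries and were tested, the 3 storage genes among them. Of the endopleura markers, JreChr09G12363 (JrANR), an anthocyanidin reductase of tannin synthesis in seed coats, was present in every library and averaged from 75.7 FPKM at 35 DAP to 808 FPKM at 147 DAP. JreChr03G12442 (JrLDOX), annotated as a leucoanthocyanidin dioxygenase, was low, with stage means between 3.97 and 8.95 FPKM. JrANR is not particular to the seed coat, so its presence does not set endopleura apart from embryo.

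The first question was when the storage transcripts appeared. At 35 DAP all 3 genes were near 0. JreChr03G12610 had 0.0624, 0.110 and 0 FPKM in replicates 1, 2 and 3. JreChr03G12612 had 0.131, 0.944 and 1.29 FPKM. The oleosin had 0.276, 0.920 and 0.334 FPKM. In these libraries only JreChr03G12612 in replicate 3 passed 1 FPKM.

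At 63 DAP the same genes were among the more abundant transcripts of the tissue. JreChr03G12610 had 584, 601 and 1402 FPKM, with a mean of 862 ± 468 (SD, n = 3). JreChr03G12612 had 1176, 1001 and 5004 FPKM, with a mean of 2393 ± 2262 (SD, n = 3), and in replicate 3 it was the gene with rank 10 of the library. The oleosin had 173, 155 and 144 FPKM, with a mean of 157 ± 14.6 (SD, n = 3). Every library at 63 DAP lay more than 100-fold above the highest library at 35 DAP for each of the 3 genes.

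On the log2(FPKM + 1) scale JreChr03G12610 rose by 9.55 (standard error 0.60, limma adjusted p = 1.33e-08). JreChr03G12612 rose by 10.04 (standard error 0.76, limma adjusted p = 9.02e-08). The oleosin rose by 6.73 (standard error 0.36, limma adjusted p = 2.68e-09). All 3 genes were thus called higher without overlap between the stages, where 19.3% of tested genes were called higher and 26.1% were higher without overlap. Only 3 tested genes changed more than JreChr03G12610 in either direction, 1 changed more than JreChr03G12612 and 22 changed more than the oleosin. The sizes depend on the constant that is added before taking logs. With 0.1 in place of 1 the changes were 12.36, 11.34 and 8.15. Without replicate 3 of 63 DAP, the high glutelin library, the change of JreChr03G12612 was 9.31 with an adjusted p of 4.84e-07 in limma. In pooled tissue, fewer cells with a transcript and less of it per cell cannot be told apart, and no library was made between 35 and 63 DAP to place the onset more closely.

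**Figure D1:**
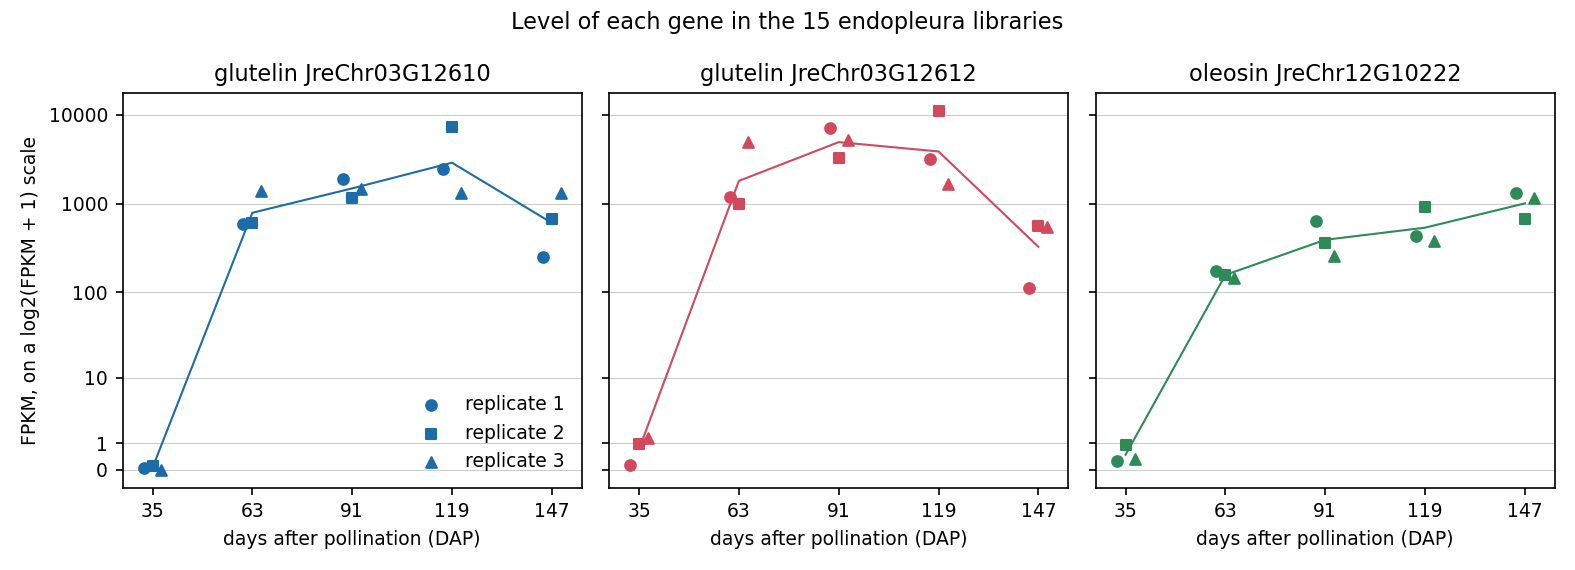
FPKM of the 3 storage genes (vertical axis, log2(FPKM + 1) scale labelled in FPKM) against days after pollination, with 1 symbol per library and a line through the stage means on that scale. All genes sit near 0 at 35 DAP and above 100 FPKM in every later library. At 147 DAP the glutelins lie below most libraries of 63 to 119 DAP, while the oleosin has its highest mean.

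Between 63 and 119 DAP the glutelins were high, and neither the step to 91 DAP nor that to 119 DAP passed the test. The change over both steps, from 63 to 119 DAP, was not tested. Over that interval the mean of JreChr03G12610 went from 862 to 3736 FPKM. At 91 DAP JreChr03G12610 had 1921, 1159.7 and 1476 FPKM and JreChr03G12612 had 7096, 3249 and 5235.5 FPKM. At 119 DAP JreChr03G12610 had 2475, 7406 and 1325 FPKM and JreChr03G12612 had 3177, 10963 and 1675 FPKM. The stages overlap for both genes, and replicate 2 of 119 DAP holds the highest value of the whole course for each.

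From 63 to 91 DAP the log2 change of JreChr03G12610 was 0.91 (standard error 0.60, limma adjusted p = 0.297) and that of JreChr03G12612 was 1.45 (standard error 0.76, limma adjusted p = 0.183). From 91 to 119 DAP the log2 changes were 0.96 for JreChr03G12610 (limma adjusted p = 0.301) and -0.35 for JreChr03G12612 (limma adjusted p = 0.815), with the same standard errors. In that step 18.3% of tested genes, or 4082, were called in either direction, a number that fell to 1820 with only these stages in the fit and to 2612 without replicate 2 of 91 DAP. The sign for JreChr03G12612 rests on single libraries, and without replicate 3 of 119 DAP its change was 0.26.

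The oleosin rose in the first of these steps. It had 639, 359.9 and 259.5 FPKM at 91 DAP, with a mean of 419 ± 196 (SD, n = 3). At 119 DAP it had 433, 927 and 384 FPKM, with a mean of 581 ± 301 (SD, n = 3). Every library at 91 DAP lay above the highest at 63 DAP, and the libraries of 91 and 119 DAP overlap.

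From 63 to 91 DAP the oleosin rose by 1.31 on the log2 scale (standard error 0.36, limma adjusted p = 0.0152). It was the only storage gene of the 3 called higher in this step, where 7.59% of tested genes were called higher and 13.3% were higher without overlap. Whether its change differed from those of the glutelins was not tested for this step. Without replicate 1 of 91 DAP, its highest library there, the change was 0.96 (limma adjusted p = 0.0741). From 91 to 119 DAP the log2 change was 0.46 (standard error 0.36, limma adjusted p = 0.431).

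At the late stage both glutelins fell and the oleosin did not. At 147 DAP JreChr03G12610 had 250.4, 671 and 1324 FPKM and averaged 749 ± 541, against 3736 ± 3230 at 119 DAP (SD, n = 3 each), a mean that was 4.99-fold lower. JreChr03G12612 had 112, 562 and 549 FPKM and averaged 407 ± 256, against 5272 ± 4986 (SD, n = 3 each), a mean that was 12.9-fold lower. The oleosin had 1335, 666 and 1150.1 FPKM and averaged 1050.5 ± 345, against 581 ± 301 (SD, n = 3 each), a mean that was 1.81-fold higher.

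For JreChr03G12612 the groups stand well apart, with 562 FPKM as the highest library at 147 DAP and 1675 FPKM as the lowest at 119 DAP. For JreChr03G12610 they only just do not overlap, since replicate 3 had 1324 FPKM at 147 DAP and replicate 3 had 1325 FPKM at 119 DAP. The oleosin stages overlap, because replicate 2 was highest at 119 DAP and lowest at 147 DAP.

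JreChr03G12610 fell by 2.25 on the log2 scale (standard error 0.60, limma adjusted p = 0.00957) and JreChr03G12612 fell by 3.57 (standard error 0.76, limma adjusted p = 0.00228). Both glutelins were called lower, beside 21.8% of tested genes called lower and 25.9% lower without overlap. The oleosin had a log2 change of 0.91 (standard error 0.36, limma adjusted p = 0.0644) and did not pass, beside 14.1% of tested genes called higher. These standard errors rest on a spread shared over all stages. With only these stages in the fit, the change of JreChr03G12610 had a standard error of 0.85 and a limma adjusted p of 0.104 and was not called. Its fall also depends on replicate 1 of 147 DAP and on replicate 2 of 119 DAP. Without the former it was -1.62 (limma adjusted p = 0.0524) and without the latter -1.58 (limma adjusted p = 0.0409). For JreChr03G12612 the change was -2.80 and -2.82 without the same libraries and -4.18 without replicate 3 of 119 DAP, with limma adjusted p of 0.0134, 0.0103 and 0.0016. The oleosin passed the threshold without replicate 2 of 119 DAP, with a change of 1.3 (limma adjusted p = 0.00934), and without replicate 2 of 147 DAP, with a change of 1.21 (limma adjusted p = 0.023).

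Set against the first stage after onset, the 3 genes ended at different places. From 63 to 147 DAP the oleosin rose by 2.68 on the log2 scale (standard error 0.36, limma adjusted p = 2.23e-05), to a mean 6.69-fold higher, without overlap. Of all tested genes 19.5% were called higher in this comparison and 21.9% were higher without overlap. JreChr03G12612 fell by 2.47 (standard error 0.76, limma adjusted p = 0.0123), beside 38.3% of tested genes called lower and 41.3% lower without overlap. Its call ended without replicate 3 of 63 DAP (-1.73, limma adjusted p = 0.0671) and without replicate 1 of 147 DAP (-1.70, limma adjusted p = 0.0707). JreChr03G12610 had a log2 change of -0.38 (standard error 0.60, limma adjusted p = 0.612) with overlapping libraries, and its sign turned without either of these libraries, to 0.03 and 0.26.

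None of the genes returned to its level of 35 DAP. At 147 DAP the log2 differences from 35 DAP were 9.17 for JreChr03G12610, 7.57 for JreChr03G12612 and 9.41 for the oleosin, with limma adjusted p of 6.48e-09, 5.87e-07 and 2.81e-11. All 3 were called higher without overlap, beside 24% of tested genes called higher and 27.6% higher without overlap. The median change of all tested genes in this comparison was -0.27. Without replicate 1 of 147 DAP the glutelin differences were 9.80 and 8.34.

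By stage mean, JreChr03G12610 was highest at 119 DAP, followed by 91, 63, 147 and 35 DAP. JreChr03G12612 had the same order, and 119 and 91 DAP were almost level at 5272 and 5194 FPKM. The oleosin was highest at 147 DAP, followed by 119, 91, 63 and 35 DAP. Of neighbours in these orders, 91 and 119 DAP did not differ beyond the spread for any of the 3 genes, 63 and 91 DAP did not for the glutelins, and 63 and 147 DAP did not for JreChr03G12610. The steps next to 35 DAP passed the test for all 3 genes. The oleosin's step from 119 to 147 DAP did not pass in the full set of libraries.

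The ratio of the oleosin to a glutelin within a library does not depend on how libraries are scaled, and tests the late difference itself. Oleosin over JreChr03G12610 was 0.296, 0.258 and 0.102 at 63 DAP, 0.332, 0.310 and 0.176 at 91 DAP and 0.175, 0.125 and 0.290 at 119 DAP. At 147 DAP it was 5.33, 0.993 and 0.869. Every library of 147 DAP was above every earlier library from 63 DAP on. In replicate 1 the oleosin was the more abundant transcript per length, and in replicate 2 both were level.

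Oleosin over JreChr03G12612 was 0.147, 0.155 and 0.0287 at 63 DAP, 0.0900, 0.111 and 0.0496 at 91 DAP and 0.136, 0.0846 and 0.229 at 119 DAP. At 147 DAP it was 11.9, 1.19 and 2.1, so the oleosin exceeded this glutelin in all 3 libraries after having been the lower of the pair in all 9 before.

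From 119 to 147 DAP the mean log2 ratio to JreChr03G12610 rose by 3.17, or 8.98-fold, and that to JreChr03G12612 by 4.49, or 22.4-fold. The exact permutation test (two-sided) gave p = 0.10 for each, which is its minimum for groups of 3, and 0.10 after Benjamini-Hochberg adjustment over the 5 ratio tests, so this design cannot pass 0.05. Set against the 9 libraries of 63, 91 and 119 DAP pooled as the reference, the differences were 2.97 and 4.98. The exact permutation p was 0.00455 for each, the smallest for this grouping. It follows from the lack of overlap given above and treats 3 stages as alike. It stands outside the 5 adjusted tests, so no conclusion is drawn from it. Replicate 1 of 147 DAP adds most to both differences, and without it those from 119 DAP were 2.33 and 3.51. Without replicate 2 of 147 DAP the second was 5.18.

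**Figure D2:**
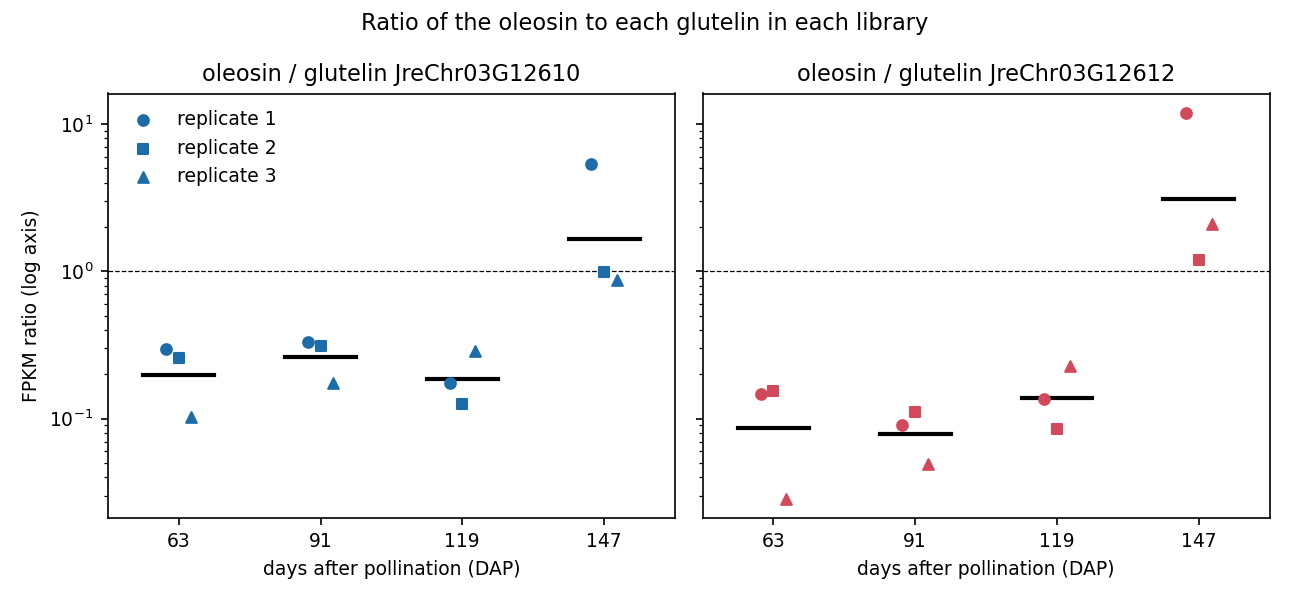
FPKM ratio of the oleosin to JreChr03G12610 (left) and to JreChr03G12612 (right) in each library of 63 to 147 DAP, on a log axis, with 1 symbol per library, bars at the geometric mean of each stage and a dashed line at equal levels. The ratios run from 0.0287 to 0.332 up to 119 DAP and from 0.869 to 11.9 at 147 DAP, where replicate 1 is the highest.

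The 2 glutelins kept pace with each other more closely than either kept a level, but their ratio shifted with age. JreChr03G12612 over JreChr03G12610 was 2.02, 1.66 and 3.57 at 63 DAP. It was 3.69, 2.80 and 3.55 at 91 DAP. It was 1.28, 1.48 and 1.26 at 119 DAP and 0.446, 0.837 and 0.414 at 147 DAP. JreChr03G12612 was the higher gene of the pair in all 9 libraries from 63 to 119 DAP and the lower one in all 3 libraries of 147 DAP.

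The stages of 91, 119 and 147 DAP do not overlap in this ratio, and only replicate 3 of 63 DAP reached into the range of 91 DAP. Geometric means were 2.29, 3.32, 1.34 and 0.537 from 63 to 147 DAP. The stage means spanned 2.63 on the log2 scale, a 6.19-fold range. An exact permutation test over all 369600 arrangements of the 12 libraries gave p = 0.000455, or 0.00227 after adjustment over the 5 ratio tests. When single libraries of the 12 were omitted, the range lay between 2.44 and 2.95 and the exact p between 0.00026 and 0.00182.

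Single pairs of stages cannot reach 0.05. The log2 ratio was lower by 2.09 at 147 DAP than at 63 DAP and lower by 1.31 at 119 DAP than at 91 DAP, each with the smallest exact permutation p of 0.10. At 35 DAP the ratio was 2.1 and 8.54 in replicates 1 and 2 and has no value in replicate 3, where JreChr03G12610 was listed at 0. All of those rest on values near 0 and were not used.

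**Figure D3:**
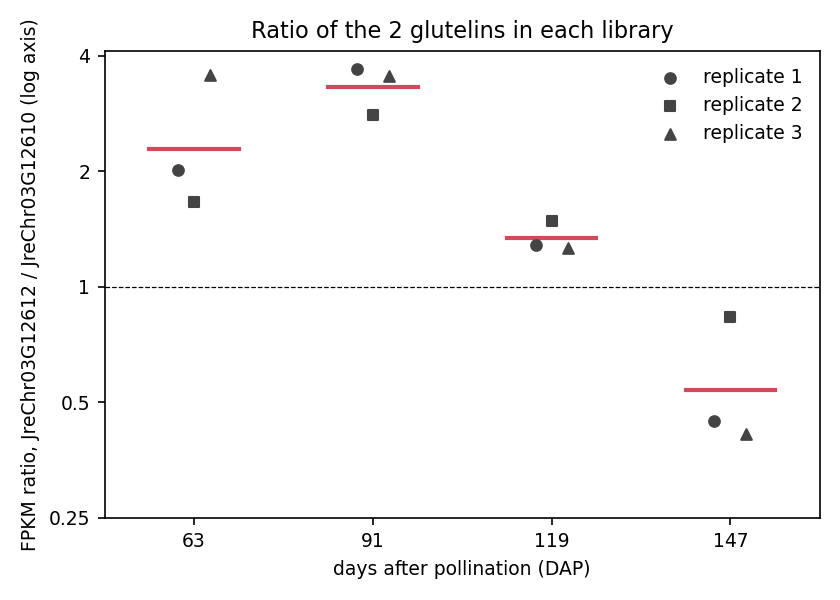
FPKM ratio of JreChr03G12612 to JreChr03G12610 in each library of 63 to 147 DAP, on a log axis, with 1 symbol per library, red bars at the geometric means and a dashed line at equal levels. The ratio is highest at 91 DAP (2.80 to 3.69), lower at 119 DAP (1.26 to 1.48) and below 1 in all libraries of 147 DAP (0.414 to 0.837).

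Replicates of 1 stage differed far more in these genes than in most others. The coefficient of variation (CV, the SD as a percentage of the mean) of JreChr03G12610 was 54.2%, 25.2%, 86.5% and 72.3% at 63, 91, 119 and 147 DAP. That of JreChr03G12612 was 94.5%, 37.0%, 94.6% and 62.9%. Genes with a stage mean of at least 100 FPKM had median CVs of 10.6%, 10.6%, 18.0% and 14.3% at these stages. Both glutelins were more variable than 88.2% or more of these abundant genes at each of these stages, and JreChr03G12612 than 99.8% at 63 DAP.

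The oleosin was tight at onset and loose later. Its CV was 9.32% at 63 DAP, close to the median abundant gene, and 46.8%, 51.7% and 32.9% at 91, 119 and 147 DAP. At 91 DAP it was more variable than either glutelin and than 95.6% of abundant genes. Within stages from 63 DAP on, the pooled SD of log2 FPKM was 0.96 for JreChr03G12610, 1.19 for JreChr03G12612 and 0.55 for the oleosin. For the log2 ratio of the glutelins it was 0.42, below that of either gene alone. The ratios of the oleosin to the glutelins had pooled SDs of 0.93 and 1.20, no smaller than those of the oleosin alone.

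A few libraries carried much of this spread, and the genes did not always move together in them. In replicate 3 of 63 DAP the glutelins were 2.37 and 4.60 times the mean of the other libraries of the stage, while the oleosin was 0.876 times. In replicate 2 of 119 DAP all 3 were high, at 3.90, 4.52 and 2.27 times, and together they made up 1.88% of the FPKM sum of the library, the largest share of the course. JrANR was lowest of its stage in that library, with 181 FPKM against 342 and 344 FPKM in replicates 1 and 3. In replicate 1 of 147 DAP the glutelins were at 0.251 and 0.201 times the others and the oleosin at 1.47 times. At 91 and 119 DAP the highest library was the same for all 3 genes, whereas at 63 and 147 DAP the oleosin had another highest library than either glutelin.

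**Figure D4:**
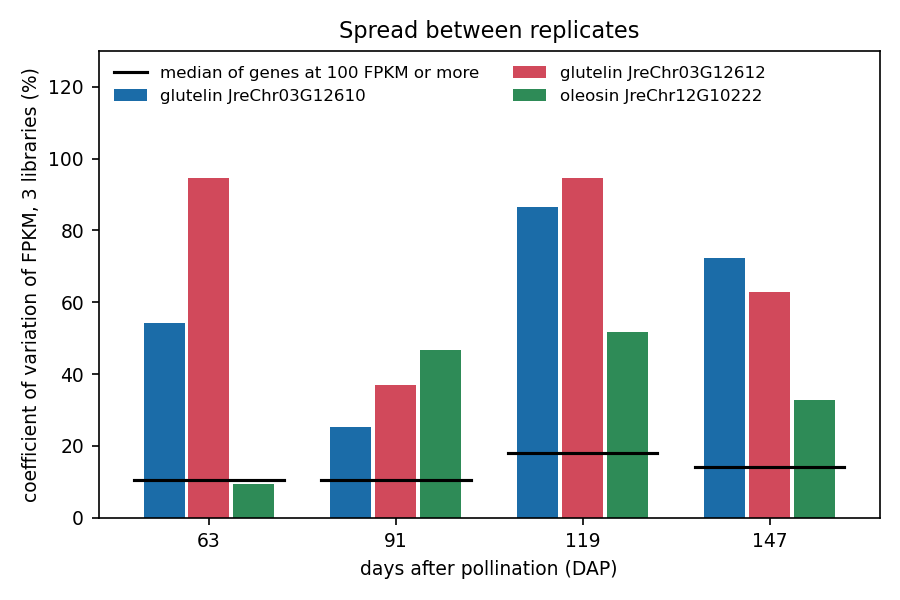
Coefficient of variation of FPKM over the 3 libraries of each stage from 63 to 147 DAP, as bars from 0 for each storage gene, with black lines at the median of all genes with a stage mean of at least 100 FPKM. The glutelin bars reach from 25.2% to 94.6%, all above the lines at 10.6% to 18.0%, and the oleosin lies below the line only at 63 DAP (9.32%).

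Other seed maturation genes were taken from lists based on annotations in the study's supplementary tables. The late embryogenesis list holds the DC-8-like JreChr01G10577 and JreChr01G12905 and the LEA protein 1 homolog JreChr01G10579. DC-8 was described in carrot embryos, and LEA proteins guard cells against drying. All 3 were higher at 63 than at 35 DAP in limma, with a median log2 change of 3.11 beside -0.07 over all tested genes, of which 19.3% were called higher. From 119 to 147 DAP 2 of 3 rose again, with a median of 1.22 beside -0.10 over all tested genes, of which 14.1% were called higher. The mean of JreChr01G10577 was 0.032, 9.12, 129, 227 and 2478 FPKM over the 5 stages, and it rose by 3.50 in the last step (limma adjusted p = 5.89e-05). JreChr01G10579 averaged 0.721, 36.9, 99.3, 177 and 393 FPKM and rose by 1.22 in the last step (limma adjusted p = 0.025). JreChr01G12905 averaged 0.0813, 2.85, 5.27, 36.2 and 52.4 FPKM and had a last change of 0.55 (limma adjusted p = 0.236). These genes, like the oleosin and unlike the glutelins, had their highest mean at 147 DAP.

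JreChr13G11197 (JrFAD2) is homologous to the oleate desaturase that makes linoleic acid. It averaged 11.4 FPKM at 35 DAP, then 139, 215 and 309 FPKM, and 19.1 FPKM at 147 DAP. It rose by 3.72 from 35 to 63 DAP (limma adjusted p = 9.97e-05) and fell by 3.69 from 119 to 147 DAP (limma adjusted p = 0.00023), the directions of both glutelins. Its libraries at 119 DAP, with 225, 591 and 111 FPKM, stood in the same order as those of all 3 storage genes. At 63 DAP it had 143, 111 and 162 FPKM, the order of JreChr03G12612 and not of JreChr03G12610 or the oleosin. At 91 DAP it was highest in replicate 1, as were all 3 storage genes. It had 319, 202 and 123 FPKM there, the order of the oleosin and not of the glutelins. At 147 DAP it had 11.3, 26.3 and 19.7 FPKM, the order of JreChr03G12612 and not of JreChr03G12610 or the oleosin.

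The oil list as a whole, with genes of oil synthesis and of oil and protein body formation, held 8 genes, of which 7 were tested. From 35 to 63 DAP 4 rose and 0 fell, with a median log2 change of 0.53 beside -0.07 for all tested genes, of which 19.3% were called higher and 27.4% lower. From 119 to 147 DAP 0 rose and 4 fell, with a median of -0.53 beside -0.10 for all tested genes, of which 14.1% were called higher and 21.8% lower. The median of -0.53 and 1 of the falls came from JreChr14G11436, which averaged only 0.747 FPKM at 119 DAP and 0.210 FPKM at 147 DAP. Of the lecithin:cholesterol acyltransferase genes in the list, JreChr13G10859 and JreChr13G10860, whose closest Arabidopsis match is AT3G44830, rose and then fell. JreChr09G12342, with the same annotation, rose by 0.53 (limma adjusted p = 0.0125) and did not fall in the last step. Its change there was 0.32 (limma adjusted p = 0.126), and its highest mean was 39.7 FPKM at 147 DAP. JreChr13G10859 rose by 2.70 and fell by 1.62, to 5.65 FPKM, and JreChr13G10860 rose by 2.99 and fell by 1.75, to 9.80 FPKM (limma adjusted p of 6.67e-06 and 0.00119, and of 4.84e-06 and 0.00112).

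Of the 11 other genes annotated with a cupin domain in the study's supplementary tables, 0 passed the filter. Cupin genes without an annotation there are not in this list. The highest stage mean was 0.961 FPKM, for JreChr14G11701 at 35 DAP, far below both glutelins at any later stage. The list of lipid transfer and hydrophobic seed proteins had 4 tested genes of 7. From 35 to 63 DAP 1 rose and 2 fell, and from 119 to 147 DAP 0 rose and 2 fell, with medians of -1.05 and -0.59 beside -0.07 and -0.10 for all tested genes and beside the same shares called. Among them JreChr06G11418 rose by 1.60 and later fell by 1.22, ending at 149 FPKM, near its 152 FPKM of 35 DAP (limma adjusted p = 2.47e-07 and 1.3e-05). JreChr13G11259 fell in both steps, by 1.70 and 0.75 (limma adjusted p = 4.56e-05 and 0.0261), from 85.5 FPKM at 35 DAP to 0.516 FPKM at 147 DAP. JreChr13G10538, the highest of the list, averaged 1046 FPKM at 119 DAP and then 766 FPKM, with a change of -0.44 that did not pass (limma adjusted p = 0.0741).

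The summed FPKM of the 4 embryo markers, JrFAD2 and the late embryogenesis genes, rose over the stages up to 119 DAP. So did the stage means of the storage genes. JrFAD2, whose order of libraries is given above, was the largest part of the sum in every library of 35, 63 and 91 DAP. The sum was 5.39 to 22.3 at 35 DAP, 145 to 230 at 63 DAP, 229.9 to 686 at 91 DAP and 394 to 1266 at 119 DAP. At 119 DAP it was highest in replicate 2, as were the storage genes. At 63 DAP it was highest in replicate 3, where both glutelins were highest and the oleosin was lowest. At 91 DAP it was highest in replicate 1, as were all 3 storage genes. Its libraries there had the order of the oleosin and not of the glutelins. At 147 DAP it was highest in replicate 3, as was JreChr03G12610 and not JreChr03G12612 or the oleosin. JrANR was lowest in the highest library of the sum at 35, 91, 119 and 147 DAP and not at 63 DAP. At 63 and 91 DAP the JrANR libraries lay close together, at 187 to 194 and 103 to 110 FPKM. At 147 DAP the sum was 2034 to 3468, of which JreChr01G10577 had the largest part, while JrFAD2 averaged 19.1 FPKM. At 35 DAP JreChr01G10577 was at 0 in 2 of 3 libraries and JreChr01G12905 in 1 of 3. The part of embryo RNA in the storage transcripts of these endopleura pools was not tested. JrANR rose by 1.51 from 119 to 147 DAP (limma adjusted p = 0.000132) as the glutelins fell, and its highest library there was replicate 2 with 1058 FPKM.

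**Figure D5:**
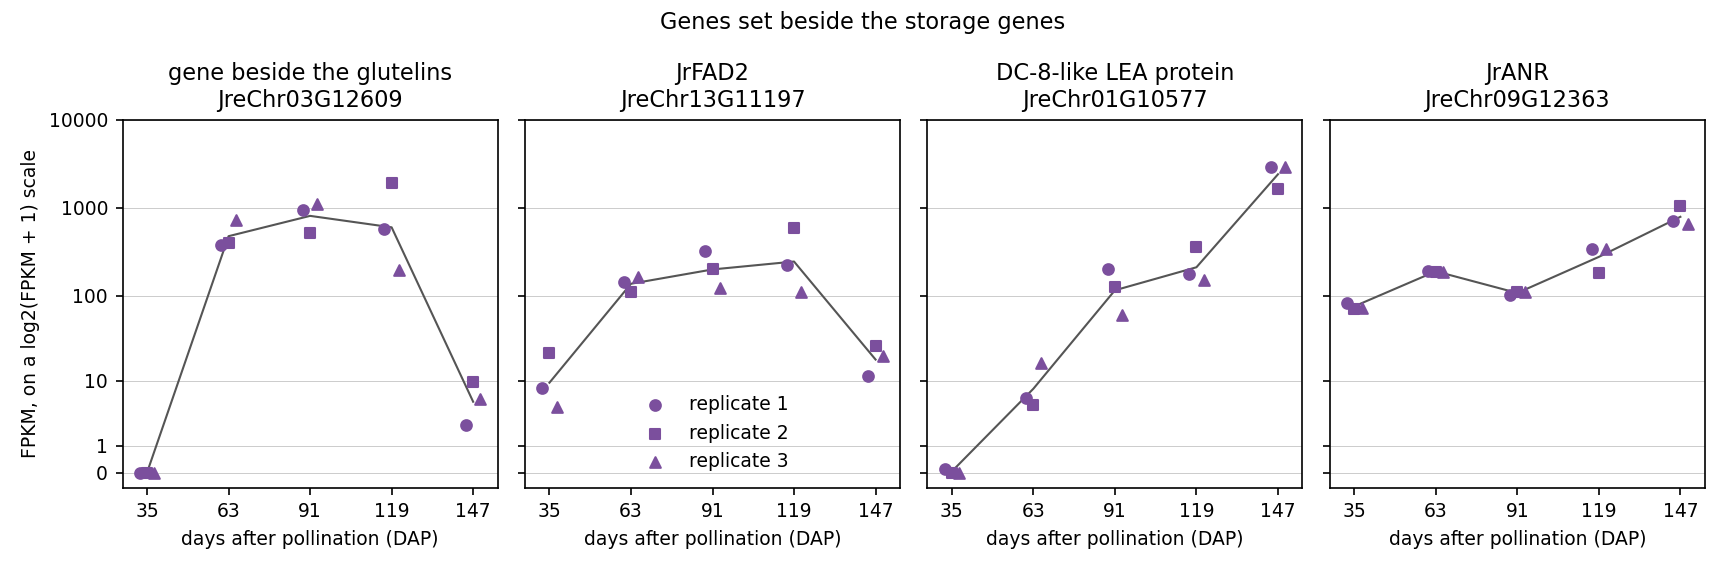
FPKM of JreChr03G12609, which lies beside the glutelins, JrFAD2, the DC-8-like gene JreChr01G10577 and JrANR (log2(FPKM + 1) scale labelled in FPKM) against days after pollination, with 1 symbol per library and lines through the stage means on that scale. JreChr03G12609 and JrFAD2 are high from 63 to 119 DAP and low at 147 DAP, and the DC-8-like gene and JrANR have their highest libraries at 147 DAP.

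The gene between the 2 glutelins, JreChr03G12611, was hardly detected, with at most 0.481 FPKM in any library. The next gene on the other side of JreChr03G12610 behaved otherwise and was picked after its values had been seen. JreChr03G12609 runs from 42478189 to 42481110 on chromosome 3 and has no annotation in the sources used here. It was listed at 0 in all 3 libraries of 35 DAP. It had 376, 396 and 726 FPKM at 63 DAP, then 940.1, 514 and 1101 FPKM in the libraries of 91 DAP and 571, 1929 and 196 FPKM in those of 119 DAP. At 147 DAP it had 2.48, 9.66 and 5.89 FPKM, and it fell by 6.57 from 119 DAP on the log2 scale (limma adjusted p = 3.77e-06).

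Replicate 3 of 63 DAP and replicate 2 of 119 DAP were the highest libraries of their stages for JreChr03G12609 as for both glutelins. At 91 DAP its highest library was replicate 3, while both glutelins were highest in replicate 1. At 147 DAP its highest was replicate 2, as for JreChr03G12612 and not for JreChr03G12610. Over the 15 libraries its log2(FPKM + 1) had a Pearson r of 0.834 with JreChr03G12610, 0.922 with JreChr03G12612 and 0.616 with the oleosin. Of the 14 tested genes other than the glutelins that start within 100 kb of JreChr03G12610, 6 were higher and 2 lower at 63 than at 35 DAP, and 3 were higher and 5 lower at 147 than at 119 DAP. Over all tested genes 19.3% were called higher and 27.4% lower in the first of these comparisons, and 14.1% and 21.8% in the second. Both JreChr03G12609 and JreChr03G12608, the next gene beyond it, rose and then fell. JreChr03G12608 rose by 2.21 and fell by 1.94 (limma adjusted p = 9.4e-05 and 0.000538). In replicate 2 of 119 DAP, where the glutelins and JreChr03G12609 were highest, it was lowest of its stage with 58.7 FPKM. Its highest library was replicate 3 at 63 DAP, as for these genes. It was replicate 2 at 91 DAP, unlike them, and replicate 2 at 147 DAP, as for JreChr03G12609 and JreChr03G12612. Around the oleosin gene 9 neighbours were tested, of which 5 rose and 0 fell at 63 DAP and 0 rose and 4 fell at 147 DAP, to be read beside the same shares. The highest stage mean of any neighbour of the oleosin was 316 FPKM.

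Likeness to each storage gene was measured as Pearson's r of log2(FPKM + 1) over the 15 libraries, among 15324 tested genes with a highest stage mean of at least 10 FPKM. The libraries share 5 stages, and the low values at 35 DAP weigh heavily in every r. Among themselves the glutelins had r = 0.975, JreChr03G12610 and the oleosin r = 0.936, and JreChr03G12612 and the oleosin r = 0.856. At r of 0.95 or more there were 47 genes for JreChr03G12610, 19 for JreChr03G12612 and 121 for the oleosin.

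Most like JreChr03G12612 was JreChr04G11776, with r = 0.996. It had 1165, 989.6 and 4640.3 FPKM at 63 DAP, where the glutelin had 1176, 1001 and 5004, and so shared the excess of replicate 3 in size. In the libraries of 119 DAP it had 2753, 13691 and 1528 FPKM, and in those of 147 DAP 135, 249 and 328 FPKM. JreChr12G11345 (r = 0.977 with JreChr03G12610 and 0.976 with JreChr03G12612) reached 32868 FPKM in replicate 2 of 119 DAP, against 6071 and 4838 FPKM in the other libraries of that stage. JreChr11G11167 was next for JreChr03G12612 (r = 0.966), with stage means between 58.9 and 455 FPKM.

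For JreChr03G12610 the closest were JreChr10G10557 (r = 0.979), which moved only between stage means of 14.3 and 54.9 FPKM, and JreChr08G11799 (r = 0.976), which averaged 4.16 FPKM at 35 DAP, 5255 FPKM at 119 DAP and later 3199 FPKM. For the oleosin they were JreChr01G10415 (r = 0.997), JreChr09G10298 (r = 0.995) and JreChr04G10013 (r = 0.994). All of the oleosin's matches had their highest mean at 147 DAP, at 411, 1361 and 264 FPKM. In replicate 3 of 63 DAP, where the glutelins and JreChr04G11776 were high, these matches had 77.0, 147 and 61.1 FPKM, and none of them was at its highest of that stage.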

How the data were processed

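RNA-seq was made from endopleura pools of 7 nuts on an Illumina NovaSeq instrument. Per the labels and the study's methods, the authors mapped the reads with HISAT2 2.1.0 to a J. regia assembly of theirs and ran StringTie 1.3.5. The deposited table gives FPKM for 39414 genes in every library. Coordinates are those of the deposited table. The labels gave each library's stage and replicate number. Read counts are not given in the sources used here, so absolute depth is unknown and no count model was used. Relative depth came from values under 0.1 FPKM, and 100 of 105 library pairs lay within 0.02 (natural log) of 1 solution.

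Log2(FPKM + 1) was fitted with limma 3.58.1 in R 4.3.3 (lmFit, eBayes with trend), with 1 coefficient per stage over all 15 libraries. The test covered the 22310 genes that reached 1 FPKM in 3 or more libraries, p-values were adjusted over them by the Benjamini-Hochberg method, and the threshold was 0.05. Changes on this scale understate those of low genes. The fit was tested on simulated data. Within-library ratios were given exact permutation tests, of which 5 were adjusted together. The oleosin ratios were also set against the pooled libraries of 63, 91 and 119 DAP, outside those 5. Other steps used Python 3.11.15, numpy 2.4.6, pandas 2.3.3 and matplotlib 3.10.9.

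The members and lists were chosen with earlier results of these data known. Genes named are the 3 members, the late embryogenesis genes, JrFAD2, JrANR and JrLDOX, in each other list the gene with the highest stage mean and those called both from 35 to 63 DAP and from 119 to 147 DAP, the gene between the glutelins, and the 3 genes most like each member. JreChr03G12608, JreChr03G12609, JreChr09G12342 and JreChr14G11436 fall outside this rule and were added after their values were seen. As alternatives, the pseudocount was set to 0.1, libraries were scaled by quantiles, to equal sums (TPM) or by median ratios, the filter was dropped or set to a mean of 5 FPKM, replicate number entered as a block, the fit was limited to the 2 stages in question, and single libraries were omitted, 15 in all. The RefSeq gene table matched 0 of the identifiers, so annotations are those of the study's supplementary tables.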

Additional observations from a re-analysis of the deposited data

How the results depend on the processing

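For the 3 storage genes in 6 stage comparisons, 419 of 432 alternatives kept the direction and the side of the threshold, 6 lost the call, 4 gained it and 3 turned the sign. For the oleosin from 63 to 91 DAP, testing genes without a filter left the change at 1.31 but with a limma adjusted p of 0.057, and with single libraries left out the change ran from 0.96 to 1.61. With only the 2 stages in the fit, JreChr03G12610 from 119 to 147 DAP stayed at -2.25 with a limma adjusted p of 0.104. Such a fit has fewer samples, but the spread of this gene also differed between stages. Its standard error from 2 stages was 0.33 for 35 to 63 DAP, 0.39 for 63 to 91 DAP, 0.66 for 91 to 119 DAP and 0.85 for 119 to 147 DAP. The fit over all stages used 0.60 for each, less than the libraries of 119 and 147 DAP gave by themselves. With single libraries left out, the change from 119 to 147 DAP ran from -2.82 to -1.58 for JreChr03G12610 and from 0.67 to 1.3 for the oleosin. Leaving out replicate 1 or replicate 3 of 91 DAP, which are not in that comparison but share its fit, moved the limma adjusted p of the oleosin to 0.0404 and 0.0479 at the same change of 0.91. From 63 to 147 DAP, JreChr03G12610 ran from -0.94 to 0.26, with 0.03 without replicate 3 of 63 DAP, and JreChr03G12612 from -2.89 to -1.70. From 91 to 119 DAP, JreChr03G12612 ran from -1.10 to 0.26. With 63, 91 and 119 DAP pooled as the reference, the late differences in the oleosin ratios were 2.97 and 4.98. Their exact permutation p is the smallest of that grouping and is not among the 5 adjusted tests. The genes called from 91 to 119 DAP numbered 4082, but 1820 with only these stages in the fit and 2612 to 4320 with single libraries left out. From 119 to 147 DAP they numbered 8018, and 5319 with only these stages.

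Whether replicate numbers pair the libraries is not given in the sources used here, and the values do not settle it. The deviations of same-numbered libraries from their stage means correlated above 0.1 in 10 of 30 pairs, with a median of -0.03. With the number as a replicate block, no call of the storage genes changed. The limma adjusted p from 119 to 147 DAP was then 0.0139 for JreChr03G12610, 0.00318 for JreChr03G12612 and 0.0696 for the oleosin, and 7632 genes were called.

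The overall level depends on the scaling. From 35 to 147 DAP the median change of the tested genes was -0.27 as deposited, -0.53 as TPM, -0.05 with median-ratio scaling and 0.05 with quantile normalization, and the share of called genes that were higher was 35.4%, 25%, 46.6% and 50.7%. The storage genes kept their direction under each. Quantile normalization did not shift them alike, and from 119 to 147 DAP it gave -1.85 for JreChr03G12610, -3.10 for JreChr03G12612 and 0.79 for the oleosin, while the median of all tested genes went from -0.10 to -0.01. There were 3 pools a stage, the glutelin CV lay between 25.2% and 94.6%, and absolute depth is unknown. Neither glutelin passed the test in the single steps between 63 and 119 DAP, and their change over that whole interval was not tested. Values near 0 at 35 DAP carry an unknown counting error.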
